A study of Mus musculus with 4 samples.

Results

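The genes described here encode the machinery that carries nuclear-encoded proteins into mitochondria and that folds, cleaves or degrades them there. They were chosen by symbol alone: all symbols starting with Tomm or Timm except Timmdc1, the motor genes Hspa9, Pam16, Dnajc15, Dnajc19, Grpel1 and Grpel2, the chaperones Trap1, Hspd1 and Hspe1, the proteases Lonp1, Htra2, Clpp and Clpx, Yme1l1, Spg7, Afg3l1 and Afg3l2, the peptidase subunits Pmpca and Pmpcb, the insertion factors Samm50 and Oxa1l, and the prohibitins Phb and Phb2. This gave 46 of the 11502 gene symbols that had a value in the RNA-Seq table, and all 46 were among the 10604 genes whose mean over the 4 libraries reached 1 FPKM. Timm8a2, Tomm20l and Tomm6os also meet the rule but have no value among the transcripts used here.

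HT-22 cells, an immortalized line from mouse hippocampal neurons, carried either a negative control lentivirus (labelled wild type, called Ctrl) or a lentivirus overexpressing PGC-1α (PGC-1alpha overexpression in the labels, called PGC-1α), and both kinds of cells had been selected with puromycin according to the study's methods. Each kind was sequenced untreated and after oxygen and glucose deprivation (OGD), in which cells stayed 2 h without serum, glucose and oxygen and then 24 h in normal medium (Ctrl+OGD and PGC-1α+OGD). Each of the 4 groups had 1 library, so that none of the differences below has a replicate check, and neither an error nor a p value can be given. In RNA from whole cultures, a difference in the share of cells and a difference in RNA per cell cannot be told apart.

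The overexpressed gene, Ppargc1a, the coactivator that raises the expression of many mitochondrial genes, was at 0.9 FPKM in the Ctrl library, 35.1 FPKM in PGC-1α and, after OGD, 0.103 FPKM in control cells and 8.41 FPKM in PGC-1α cells. Both libraries labelled PGC-1α were thus above both control libraries, and the level in PGC-1α+OGD lay below that in PGC-1α. None of 7 neuron markers (Map2, Rbfox3, Tubb3, Nefl, Snap25, Syt1 and Stmn2) had a value among the transcripts used here. Of the markers of other cell types, 1 of 3 for astrocytes (Aldh1l1, 2.32 to 4.53 FPKM), 1 of 3 for microglia (Cx3cr1, 0.0239 to 1.22 FPKM), 1 of 3 for oligodendrocytes (Mbp, 3.26 to 4.76 FPKM) and 0 of 2 for endothelium had a value. The summed FPKM of a library ranged from 331892 to 353381, and the number of reads behind it is unknown.

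Most mitochondrial proteins are made in the cytosol and enter through the TOM complex of the outer membrane. From there small TIM chaperones guide membrane proteins across the intermembrane space, the TIM22 complex inserts carriers into the inner membrane, and the TIM23 complex passes presequence proteins to a motor built around the matrix Hsp70, mortalin. In the matrix the processing peptidase removes the presequence, Hsp60 and Hsp10 fold the protein, and AAA+ proteases such as LON and CLPXP degrade what does not fold. PGC-1α has no DNA-binding domain of its own and works through factors such as NRF1, the ERR receptors and the ETS factor GABP, whose binding letters are shown next because the overexpressed gene acts through them.

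Promoter windows of 250 bases before to 50 bases after each start (RefSeq, GRCm38.p6) were found for 39 of the 46 genes, and Afg3l2, Grpel2, Hspa9, Htra2, Timm21, Tomm40l and Tomm7 had none. Searched on both strands, the ERR letters AAGGTCA were present in 6 of the 39 windows (15.4%) and in 3.72% of the windows of all genes compared, the NRF1 letters GCGCANGCG in 10 (25.6%, against 16.5%), and the ETS letters CCGGAAG in 16 (41%, against 22.4%). Among mitochondrial ribosomal protein genes the ERR, NRF1 and ETS letters were present in 5.88%, 23.5% and 36.8%. Among nuclear genes whose symbols start as those of complex I subunits the shares were 9.09%, 24.2% and 12.1%. Of the 39 genes 3 (7.69%) have more than 1 window, against 20.5% of all genes, and a match in any window was counted. A match of letters describes the window and is not evidence of binding. The 6 genes with the ERR letters were Hspd1, Hspe1, Timm23, Timm44, Timm8b and Trap1, and Hspd1 and Hspe1, whose most abundant transcripts start 108 bases apart on opposite strands of chromosome 1, share 1 match between them. In Timm23 the match overlaps one to the ETS letters. The matches are shown 5′ to 3′ on the strand that reads the searched letters, with these letters in capitals.
Hspe1 and Hspd1, chr1:55088090-55088116, plus strand: ccgtgggtgaAAGGTCAagtggcgtca
Timm44, chr8:4275894-4275920, minus strand: gcgacgcaggAAGGTCAcacgggctct
Timm8b, chr9:50603797-50603823, plus strand: tcgagggctcAAGGTCActctacaacc
Timm23, chr14:32201861-32201887, minus strand: cggcgcccggAAGGTCAgcgtggtgaa
Trap1, chr16:4077937-4077963, minus strand: actgagatccAAGGTCAaaaagtacag

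The NRF1 letters stood in the windows of Afg3l1, Clpx, Hspd1, Oxa1l, Pam16, Phb, Spg7, Timm13, Timm8b and Tomm20. A receptor, a motor subunit, a small TIM, a prohibitin and a protease subunit are shown as examples of how far the letters spread over the pathway.
Tomm20, chr8:126945922-126945950, plus strand: aacgcctggtGCGCACGCGcagatggacc
Pam16, chr16:4624943-4624971, minus strand: tcgcgtccttGCGCACGCGctctccggtc
Timm8b, chr9:50603910-50603938, minus strand: tcgctggggtGCGCACGCGcggtggcagc
Phb, chr11:95666977-95667005, plus strand: gagctgcctgGCGCACGCGcagtatccgg
Clpx, chr9:65294163-65294191, minus strand: agtttacgctGCGCATGCGtggagactaa

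Levels are given as FPKM, fragments per unit of transcript length and of library size, summed over the deposited transcripts of a gene, so that they are per length and can be set beside each other. The genes of import and matrix proteostasis were well expressed in HT-22 cells, with a median of the mean level of 32.4 FPKM against 12.6 FPKM over all genes compared. The highest mean levels were those of matrix chaperones and a matrix protease: mortalin (Hspa9, 470 FPKM), Hsp60 (Hspd1, 461 FPKM), Hsp10 (Hspe1, 346 FPKM) and LON protease (Lonp1, 203 FPKM). Together these 4 held between 46.8% and 48.3% of the summed level of the 46 genes in each library. Tomm5, a small subunit of the TOM pore, followed with 125 FPKM and Timm8b with 109 FPKM. At the low end stood Timm17a at 6.52 FPKM, Tomm40l at 5.45 FPKM and Htra2 at 2.77 FPKM. The 46 genes summed to 2624 FPKM in the Ctrl library, 3076 FPKM in PGC-1α and, after OGD, 3346 FPKM in control cells and 3423 FPKM in PGC-1α cells, which is 0.791%, 0.91%, 0.947% and 0.986% of the total of the library. The sum was thus lowest in Ctrl.

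**Figure D1:**
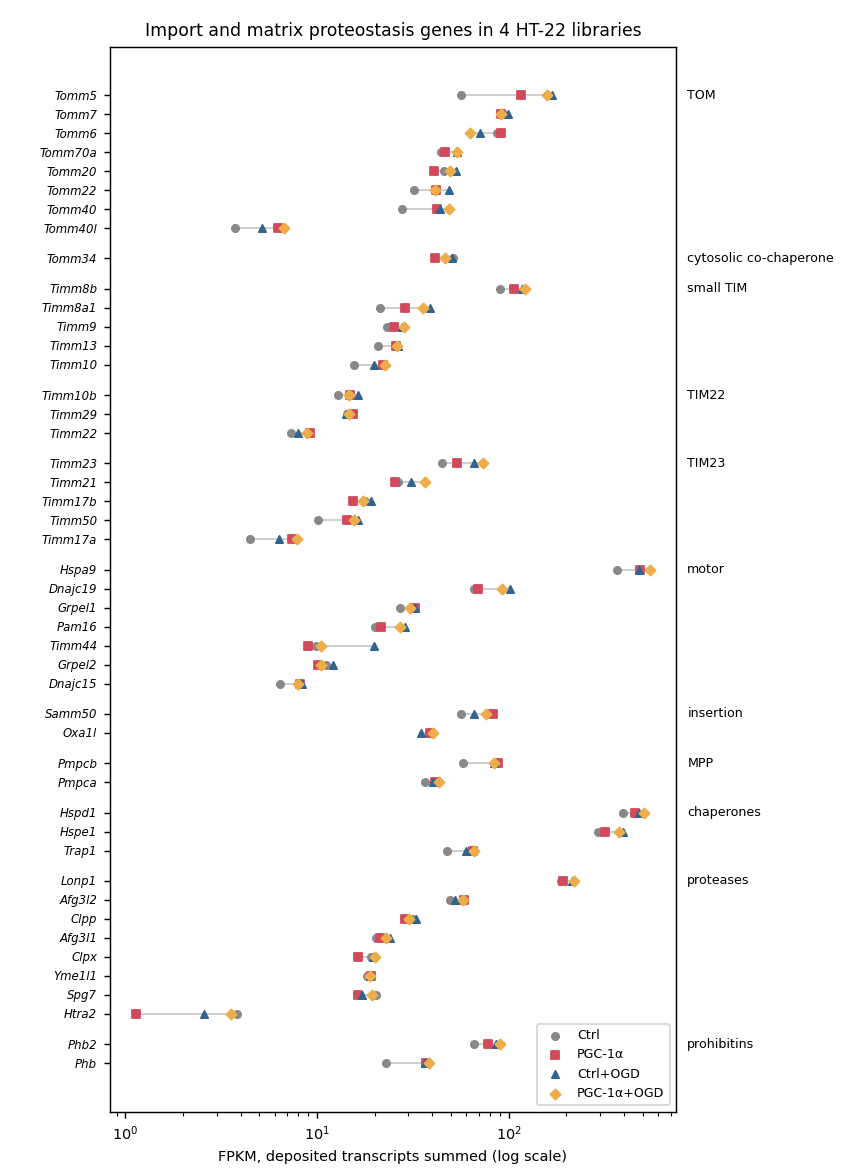
Level of each of the 46 genes in the 4 libraries, grouped by role; the x axis is FPKM on a log scale, each point is 1 library and the grey line joins the lowest and the highest. Ctrl is the leftmost point in 32 genes, and Tomm5, Timm44 and Htra2 span the widest ranges.

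Differences are given as log2 of (FPKM + 1), and genes at or past 1.5-fold, a log2 difference of 0.58, were called higher or lower. Gene positions are those of GENCODE on GRCm38. Where 4 values follow each other without names, they are those of Ctrl and PGC-1α without OGD, then of Ctrl and PGC-1α with OGD. In PGC-1α compared with Ctrl, 6 of the 46 genes (13%) were higher and 1 (2.17%) was lower, against 4.91% and 5.63% of all genes compared. Those higher were Tomm5, Tomm40, Tomm40l, Timm17a, Pmpcb and Phb, and the one lower was Htra2. The median log2 difference of the 46 genes was 0.17, and that of all genes was -0.03. Above 0 were 34 of the 46 genes (73.9%), against 45.8% of all genes. Scaled to equal column totals, Tomm40 and Pmpcb were both at 0.57 and no longer passed.

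In PGC-1α+OGD compared with Ctrl+OGD, none of the 46 genes was higher and 1, Timm44, was lower, against 3.08% and 3.82% of all genes. The median log2 difference was 0.02, beside a median of -0.01 over all genes. Above 0 were 24 of the 46 genes (52.2%), near the 47.1% of all genes. Without OGD and with OGD, the comparisons of PGC-1α with control use different libraries. Whether their medians of 0.17 and 0.02 differ was not tested, since each group has 1 library.

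In Ctrl+OGD compared with Ctrl, 8 of the 46 genes (17.4%) were higher and none was lower, against 6.2% and 7.71% of all genes. They were Tomm5, Tomm22, Tomm40, Timm8a1, Timm50, Timm44, Dnajc19 and Phb. The median log2 difference was 0.28, and that of all genes was -0.02. Above 0 were 40 of the 46 genes (87%), against 48% of all genes. This comparison depended most on scaling. With equal column totals 3 of the 46 genes were higher (Tomm5, Timm44 and Timm8a1) and none was lower, against 4.69% and 10.4% of all genes. The median of the 46 genes was then 0.19 and that of all genes -0.10, so that both moved down together, and the share of higher among all genes past 1.5-fold went from 44.5% to 31.2%. Both this comparison and that of PGC-1α with Ctrl use the same Ctrl library, so their values are not independent of each other.

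In PGC-1α+OGD compared with PGC-1α, Htra2 was higher and no gene was lower, against 3.82% and 5.22% of all genes. The median log2 difference was 0.10, beside 0.00 over all genes. Above 0 were 35 of the 46 genes (76.1%), against 50.1% of all genes. By rank of the 4 libraries, Ctrl was the lowest in 32 of the 46 genes (69.6%), against 28.2% of all genes compared. The lowest library was PGC-1α in 11 genes (23.9%), which is near the 24.4% of all genes. Ctrl+OGD was the lowest in 2 (4.35%, against 24.4%) and PGC-1α+OGD in 1 (2.17%, against 23%). The highest library was Ctrl+OGD in 19 genes (41.3%, against 26.1% of all genes) and PGC-1α+OGD in 17 (37%, against 18.9%). PGC-1α was the highest in 7 (15.2%, against 20.5%) and Ctrl in 3 (6.52%, against 34.5%). The proliferation markers Mki67 (116, 154, 132 and 173 FPKM) and Top2a (151, 167, 173 and 177 FPKM) were lowest in Ctrl too, without a call, and their part in this order was not tested.

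**Figure D2:**
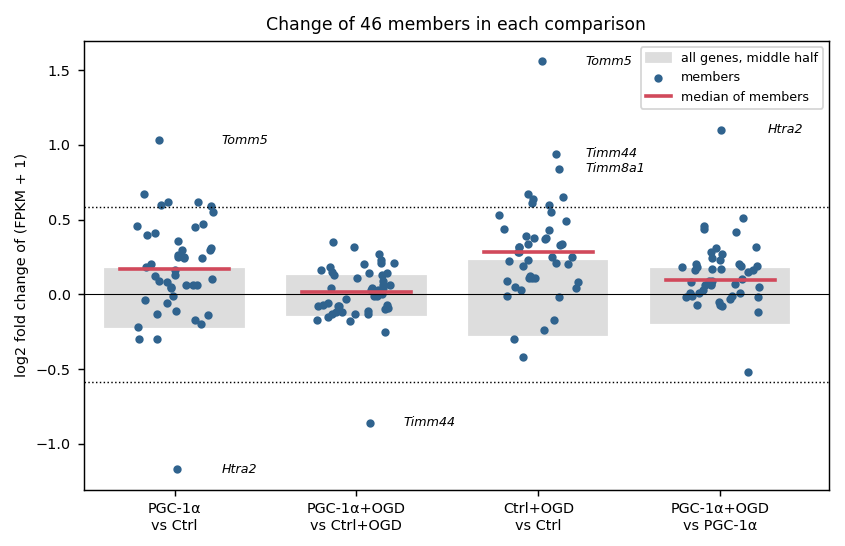
Log2 difference of (FPKM + 1) of the 46 genes in the 4 comparisons; each point is 1 gene, red lines are the medians of the 46 genes, grey boxes run from the lower to the upper quartile of all 10604 genes and dotted lines mark 1.5-fold. The medians are 0.17, 0.02, 0.28 and 0.10 from left to right.

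The TOM complex is the entry gate, with Tomm40 as its pore, Tomm20, Tomm22 and Tomm70a as receptors and Tomm5, Tomm6 and Tomm7 as small subunits. Tomm40 (chr7:19701313-19715438) was at 27.6 FPKM in the Ctrl library, 42.4 FPKM in PGC-1α and, after OGD, 43.9 FPKM in control cells and 48.6 FPKM in PGC-1α cells. Ctrl lay below the other 3 libraries, with log2 differences of 0.60 in PGC-1α and 0.65 in Ctrl+OGD. With OGD, PGC-1α and control differed by 0.14. By the more abundant of its 2 transcripts the difference in PGC-1α was 0.56, below 1.5-fold. Tomm40l, a paralog of the pore, was at 3.72, 6.24, 5.17 and 6.69 FPKM. Its sum rose by 0.62 in PGC-1α, but its most abundant of 5 transcripts was lower by 1.5-fold there (-0.73), so that sum and transcript have opposite directions. That transcript was at 1.22, 0.342, 2.92 and 3.64 FPKM.

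Tomm5 (chr4:45105208-45108114) had the widest difference upwards of the 46 genes. It was at 56.2 FPKM in the Ctrl library, 116 FPKM in PGC-1α and, after OGD, 168 FPKM in control cells and 159 FPKM in PGC-1α cells. Ctrl was the lowest library and both OGD libraries were the highest. The log2 difference was 1.03 in PGC-1α and 1.56 in Ctrl+OGD, both relative to Ctrl, and -0.08 between PGC-1α+OGD and Ctrl+OGD.

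The 4 deposited Tomm5 transcripts did not move together. The transcript with a coding length of 153 bases (ENSMUST00000107810.2) was at 14.3 FPKM in the Ctrl library, 84.2 FPKM in PGC-1α and, after OGD, 102 FPKM in control cells and 92.8 FPKM in PGC-1α cells, and it went from 25.5% of the gene's level in Ctrl to between 58.3% and 72.8% in the others. The transcript with a coding length of 183 bases (ENSMUST00000107808.2) was at 37.5, 18, 59.8 and 62 FPKM. It made up 66.8% of the level in Ctrl and was lowest in PGC-1α. A further transcript, with a coding length of 312 bases (ENSMUST00000107809.8), was at 8.98 FPKM in PGC-1α and at no more than 0.249 FPKM in the other 3 libraries.

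Tomm22, the central receptor, was at 32.1 FPKM in the Ctrl library, 41.6 FPKM in PGC-1α and, after OGD, 49 FPKM in control cells and 41.2 FPKM in PGC-1α cells. It rose by 0.60 on the log2 scale in Ctrl+OGD relative to Ctrl, and both libraries with PGC-1α lay between these. With equal column totals the first difference was 0.51 and did not pass. Tomm7 was nearly level, at 93.5, 90.8, 99.2 and 91.6 FPKM. Tomm20 and Tomm70a had no difference past 1.5-fold, with log2 differences between -0.17 and 0.28.

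Tomm6 was at 87.4, 90.7, 70.8 and 62.9 FPKM, with both OGD libraries below both others and no difference past 1.5-fold. Its transcripts diverged: the longer one, of 749 bases, was at 53.1, 50.1, 18.9 and 16.3 FPKM, and the shorter one, of 594 bases, was at 34.2, 40.5, 51.9 and 46.7 FPKM. Both have the same coding length of 222 bases, and the shorter one alone would have passed in Ctrl+OGD relative to Ctrl (0.59). The share of the shorter transcript was 39.2% and 44.7% without OGD and 73.3% and 74.1% with OGD. Exons of Tomm6 overlap those of Gm21981 on the same strand and of Usp49 on the other. Tomm34, named with the family but known as a cytosolic co-chaperone, was at 51.4, 41.5, 50.8 and 46.3 FPKM and passed in no comparison.

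**Figure D3:**
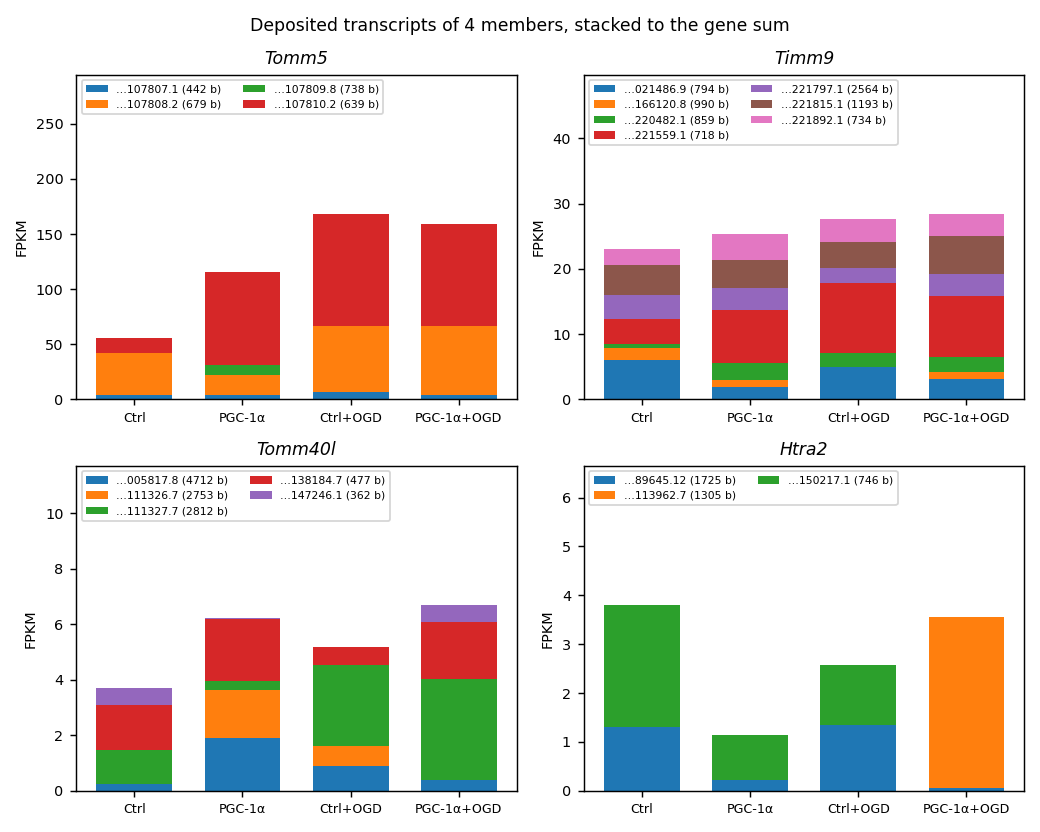
Deposited transcripts of Tomm5, Timm9, Tomm40l and Htra2 stacked to the gene's sum; the y axis is FPKM from 0, each bar is 1 library and each colour 1 transcript, named by the end of its identifier with its length in bases. In Htra2 the transcript of 1305 bases is listed at 0 in 3 libraries and makes up 98.2% of the level in PGC-1α+OGD.

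The small TIM proteins are chaperones of the intermembrane space, in which Timm9 pairs with Timm10 and Timm8 proteins with Timm13. Timm8a1 (chrX:134537256-134541865) was at 21.3 FPKM in the Ctrl library, 28.6 FPKM in PGC-1α and, after OGD, 38.8 FPKM in control cells and 35.8 FPKM in PGC-1α cells. It rose by 0.84 in Ctrl+OGD relative to Ctrl, a call that held in every scaling tried, and its other differences were between -0.12 and 0.41. Timm8b, the more abundant paralog, was at 89.9, 107, 117 and 121 FPKM with no difference past 1.5-fold. The ratio of Timm8a1 to Timm8b was 0.237 in Ctrl and 0.268 in PGC-1α, and after OGD 0.332 in control cells and 0.297 in PGC-1α cells.

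The sum of Timm9 was at 23.1, 25.3, 27.7 and 28.4 FPKM and passed in no comparison. Of its 7 transcripts, the most abundant one was at 3.84, 8.2, 10.8 and 9.33 FPKM, which taken alone would have passed in PGC-1α (0.93) and in Ctrl+OGD (1.29), both relative to Ctrl. Timm10 lay between 15.6 and 22.6 FPKM and Timm13 between 20.7 and 26.5 FPKM, each lowest in Ctrl. All 5 small TIM genes had a difference above 0 in PGC-1α (median 0.30) and in Ctrl+OGD (median 0.34), both relative to Ctrl. Of all genes, 45.8% and 48% were above 0 in these comparisons. Of the 5 genes, 1, Timm8a1, passed 1.5-fold in Ctrl+OGD relative to Ctrl.

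The TIM22 complex inserts carrier proteins. Timm22, its channel, was at 7.3, 9.22, 7.97 and 8.85 FPKM. Timm29 was at 14.4, 15.4, 14.2 and 14.6 FPKM, and Timm10b at 12.9, 14.8, 16.4 and 14.6 FPKM, the latter summed over 8 transcripts and sharing exons with Gm45799 on the same strand. None of the 3 genes passed in any comparison, and their log2 differences ran from -0.15 to 0.32.

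The TIM23 complex takes up proteins with a presequence through Timm23 and Timm17, with Timm50 as the receptor on the intermembrane side. Timm17a (chr1:135295213-135313778) was at 4.46 FPKM in the Ctrl library, 7.4 FPKM in PGC-1α and, after OGD, 6.36 FPKM in control cells and 7.87 FPKM in PGC-1α cells. It rose by 0.62 in PGC-1α relative to Ctrl, and the difference between PGC-1α+OGD and Ctrl+OGD was 0.27. Its paralog Timm17b was at 17.7, 15.4, 19.2 and 17.4 FPKM and passed nowhere. The ratio of Timm17a to Timm17b was 0.251 in Ctrl, 0.332 in Ctrl+OGD, 0.482 in PGC-1α and 0.451 in PGC-1α+OGD, so that both libraries with PGC-1α lay above both controls.

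Timm50 was at 10.1, 14.4, 16.3 and 15.5 FPKM, with Ctrl below the other 3 libraries. It rose by 0.64 in Ctrl+OGD relative to Ctrl, and by 0.55 with equal column totals, which is below 1.5-fold. Timm23 was at 44.7, 53.6, 65.9 and 73.1 FPKM. Its differences with OGD, 0.55 in control cells and 0.44 in PGC-1α cells, did not pass. Timm21, which links the channel to the TOM complex, was at 26.6, 25.4, 31 and 36.6 FPKM and did not pass either.

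The motor pulls proteins into the matrix with mortalin as its ATPase, Timm44 as the anchor to the channel, Dnajc19, Dnajc15 and Pam16 as J-type regulators, and Grpel1 and Grpel2 as nucleotide exchange factors. Timm44 (chr8:4259731-4275913) was at 9.84 FPKM in the Ctrl library, 9.01 FPKM in PGC-1α and, after OGD, 19.9 FPKM in control cells and 10.5 FPKM in PGC-1α cells. The Ctrl+OGD library stood above the other 3, which lay within 9.01 to 10.5 FPKM. The log2 difference was 0.94 in Ctrl+OGD relative to Ctrl and -0.86 in PGC-1α+OGD relative to Ctrl+OGD. Both rest on the same Ctrl+OGD value. Timm44 has 1 deposited transcript of 9 annotated, so that no division of reads among deposited transcripts enters these values. The other annotated transcripts have no value here, and a shift of reads to or from them could not be seen.

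Mortalin (Hspa9) did not follow the pattern of Timm44. It was at 368 FPKM in the Ctrl library, 487 FPKM in PGC-1α and, after OGD, 476 FPKM in control cells and 548 FPKM in PGC-1α cells, with log2 differences of 0.40, 0.37 and at most 0.20 in the other comparisons, and did not pass. The ratio of Timm44 to Hspa9 was 0.0267 in Ctrl and 0.0185 in PGC-1α, and after OGD 0.0417 in control cells and 0.0192 in PGC-1α cells. Dnajc19 was at 65.9, 68.8, 101 and 92.3 FPKM, with both OGD libraries above both others. It rose by 0.61 in Ctrl+OGD relative to Ctrl (0.52 with equal column totals, below 1.5-fold) and differed by 0.42 in PGC-1α+OGD relative to PGC-1α. Pam16 lay between 20.1 and 28.7 FPKM, Grpel1 between 27 and 32.4 FPKM, Grpel2 between 10.1 and 12.1 FPKM and Dnajc15 between 6.37 and 8.32 FPKM, all without a call.

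Samm50, the core of the machinery that inserts barrel proteins into the outer membrane, was at 56.1 FPKM in the Ctrl library, 82.8 FPKM in PGC-1α and, after OGD, 65.6 FPKM in control cells and 76.2 FPKM in PGC-1α cells. Both libraries with PGC-1α lay above both controls, with log2 differences of 0.55 and 0.21 that did not pass. Oxa1l, the insertase of the inner membrane, was at 39.3, 38.9, 34.9 and 40.5 FPKM. The processing peptidase is a heterodimer of Pmpca and the catalytic Pmpcb. Pmpcb (chr5:21737141-21757152) was at 57.9, 87.9, 84.3 and 83.9 FPKM, with Ctrl below the other 3, which lay close together. It rose by 0.59 in PGC-1α relative to Ctrl, just past 1.5-fold, and its difference in Ctrl+OGD was 0.53, just short of it. Pmpca was at 36.7, 41.3, 40.1 and 43.3 FPKM, and the ratio of Pmpcb to Pmpca was 1.58 in Ctrl and between 1.94 and 2.13 in the others.

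The matrix chaperones passed in no comparison. Hspd1 was at 396, 456, 480 and 511 FPKM, and Hspe1, its co-chaperonin, at 292, 318, 397 and 375 FPKM. Ctrl was the lowest library for both, and the largest of their differences was 0.44, for Hspe1 in Ctrl+OGD relative to Ctrl. The ratio of Hspe1 to Hspd1 stayed between 0.696 and 0.827. Trap1, the mitochondrial Hsp90, was at 47.6, 65.2, 59.9 and 65.7 FPKM, with a log2 difference of 0.45 in PGC-1α relative to Ctrl.

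Among the 8 proteases, only Htra2 passed 1.5-fold in any comparison with the transcripts summed. Lonp1 was at 187, 193, 213 and 219 FPKM. Afg3l2, a subunit of the m-AAA protease with Spg7 and Afg3l1, was at 49.4, 58.3, 52.5 and 57.9 FPKM, and Yme1l1, the i-AAA protease, was at 18.3 to 19.1 FPKM in the 4 libraries. The CLPXP protease is formed by the peptidase Clpp and the unfoldase Clpx. Clpp lay between 28.8 and 33 FPKM. Clpx was at 19.2, 16.4, 19.6 and 20.1 FPKM, and its transcript of 2885 bases made up 27.8%, 23.4%, 32% and 55.9% of that. Its other main transcript, of 2809 bases, was lower in PGC-1α+OGD than in Ctrl+OGD by 0.59 when taken alone.

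Htra2 (chr6:83051266-83055273), a serine protease of the intermembrane space, was at 3.8 FPKM in the Ctrl library, 1.13 FPKM in PGC-1α and, after OGD, 2.58 FPKM in control cells and 3.56 FPKM in PGC-1α cells. It was the least abundant of the 46 genes and was lowest in PGC-1α. The sum fell by 1.17 on the log2 scale in PGC-1α relative to Ctrl and rose by 1.10 in PGC-1α+OGD relative to PGC-1α. The rise came from 1 transcript of 1305 bases (ENSMUST00000113962.7), which was at 3.49 FPKM in PGC-1α+OGD and listed at 0 in the other 3 libraries. The most abundant transcript by mean, of 746 bases, was at 2.5, 0.917, 1.24 and 0 FPKM, and by it the last difference was -0.94, the opposite direction. By the same transcript the differences in Ctrl+OGD relative to Ctrl (-0.65) and in PGC-1α+OGD relative to Ctrl+OGD (-1.16) passed as well. Exons of Htra2 overlap those of Aup1 and Loxl3 on the other strand.

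The prohibitins form ring complexes with the m-AAA protease in the inner membrane. Phb (chr11:95666957-95680773) was at 22.8 FPKM in the Ctrl library, 36.9 FPKM in PGC-1α and, after OGD, 36.8 FPKM in control cells and 38.3 FPKM in PGC-1α cells. Ctrl lay below the other 3 libraries, which were within 36.8 to 38.3 FPKM. The log2 difference was 0.67 in both PGC-1α and Ctrl+OGD relative to Ctrl, and the second was 0.58, below 1.5-fold before rounding, with equal column totals. Phb2 was at 65.6, 78.2, 85.7 and 89.6 FPKM and did not pass. The ratio of Phb to Phb2 was 0.347 in Ctrl and between 0.427 and 0.472 in the others.

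**Figure D4:**
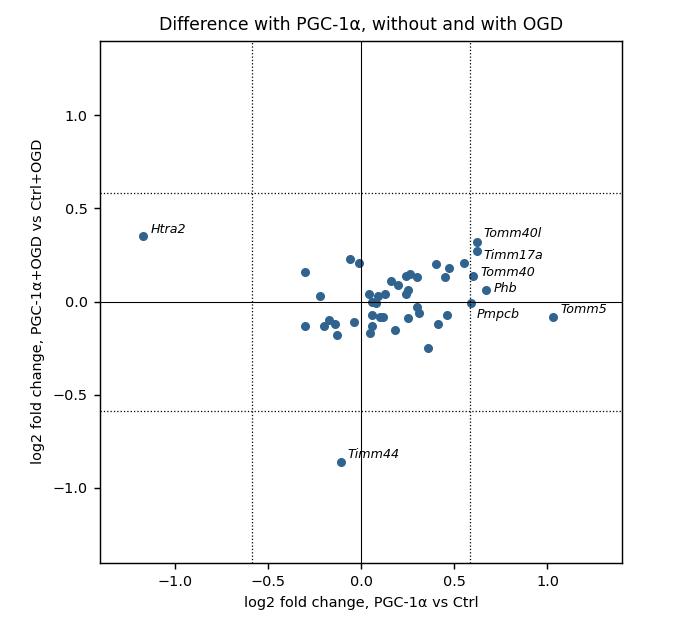
Log2 difference between the PGC-1α and control libraries without OGD (x axis) and with OGD (y axis) for the 46 genes; each point is 1 gene and dotted lines mark 1.5-fold. The 6 genes past the line on the right lie between -0.08 and 0.32 on the y axis, Htra2 is at -1.17 on the x axis and Timm44 at -0.86 on the y axis.

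Since 22 of the 46 genes sum 2 or more transcripts, the 24 genes with 1 deposited transcript were also read alone. Many of them have further annotated transcripts without a value (Timm44 has 1 of 9 and Pmpcb 1 of 8). Reads given to those transcripts are unseen, so this subset cannot show how reads were divided among the transcripts of a gene. Their median log2 differences were 0.11 in PGC-1α relative to Ctrl, -0.07 in PGC-1α+OGD relative to Ctrl+OGD, 0.27 in Ctrl+OGD relative to Ctrl and 0.08 in PGC-1α+OGD relative to PGC-1α. The medians over all 4199 genes with 1 deposited transcript were -0.02, -0.03, 0.00 and 0.00. In PGC-1α relative to Ctrl, 1 of the 24 genes (Pmpcb, 4.17%) was higher and none was lower, against 4.69% and 4.79% of all genes with 1 transcript, so that the share of higher genes was near the background. In PGC-1α+OGD relative to Ctrl+OGD none was higher and 1 (Timm44, 4.17%) was lower, against 2.17% and 3.1%. With OGD in control cells 4 (Timm8a1, Timm44, Timm50 and Tomm22, 16.7%) were higher and none was lower, against 5.79% and 6.62%. With OGD in PGC-1α cells none passed in either direction, against 2.55% and 4.6%.

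The promoter letters printed above can be set beside these differences. The 6 genes with the ERR letters had log2 differences between -0.11 (Timm44) and 0.45 (Trap1) in PGC-1α relative to Ctrl, and none passed. Of the 6 genes that were higher there, Phb holds the NRF1 letters and Pmpcb the ETS letters, Tomm5, Tomm40 and Timm17a hold none of the 3 in their windows, and Tomm40l had no window.

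Other mitochondrial gene groups were set beside these genes to show where they differ. The 77 mitochondrial ribosomal protein genes had medians of 0.20, -0.01, 0.28 and 0.08 in the 4 comparisons, in the order used above. The 38 genes whose symbols start as those of complex I subunits had medians of 0.40, 0.14, 0.24 and -0.00. The 7 genes of the cytosolic chaperonin, which folds proteins outside mitochondria, had medians of 0.13, -0.08, 0.37 and 0.23. In PGC-1α relative to Ctrl, the median of the import and proteostasis genes (0.17, 0.02, 0.28 and 0.10 in the 4 comparisons) was thus nearer to that of the mitochondrial ribosome than to that of complex I. The median of the cytosolic chaperonin (0.13) was also nearer to it than that of complex I (0.40). These distances were not tested.

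**Figure D5:**
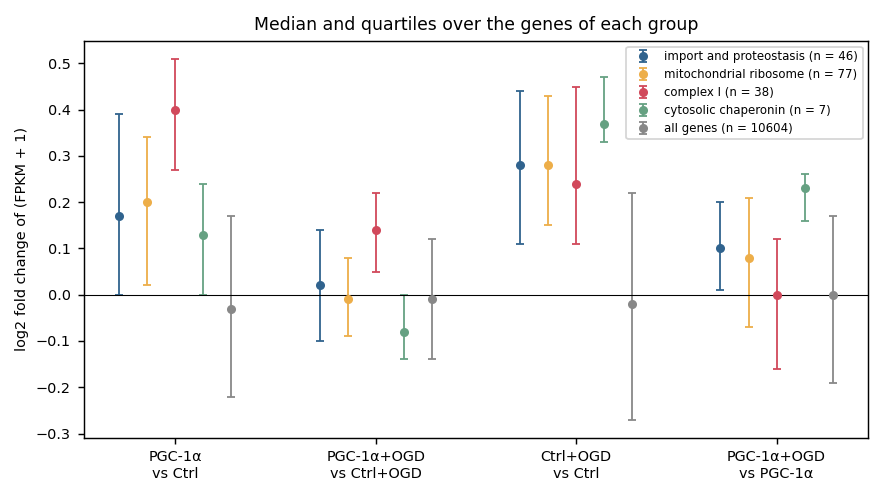
Median log2 difference of (FPKM + 1) with its quartiles over the genes of each group in the 4 comparisons; points are medians and bars run from the lower to the upper quartile over genes, not over replicates. The group labelled complex I, chosen by how the symbols start, has the highest median in both comparisons of PGC-1α with control (0.40 and 0.14). The cytosolic chaperonin has the highest in both comparisons of OGD with untreated cells (0.37 and 0.23).

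A list of 34 related genes covered the disulfide relay of the intermembrane space, the outer membrane insertion and cristae machinery, further peptidases and chaperones, and regulators of the mitochondrial unfolded protein response. In PGC-1α relative to Ctrl 5 (14.7%) were higher and 3 (8.82%) lower, against 4.91% and 5.63% of all genes. In PGC-1α+OGD relative to Ctrl+OGD 1 (2.94%) was higher and none was lower, against 3.08% and 3.82%, so that the higher share was near the background. In Ctrl+OGD relative to Ctrl 4 (11.8%) were higher and 1 (2.94%) lower, against 6.2% and 7.71%. In PGC-1α+OGD relative to PGC-1α 3 (8.82%) were higher and 1 (2.94%) lower, against 3.82% and 5.22%. The medians were 0.03, 0.09, 0.09 and 0.08, beside -0.03, -0.01, -0.02 and 0.00 over all genes. Named after their values were seen, Dnajc11 was among those higher in Ctrl+OGD relative to Ctrl (0.76), and Immt, the core of MICOS, was the gene lower in PGC-1α+OGD relative to PGC-1α (-0.81). Mtx1, a partner of Samm50, was at 7.21, 11.6, 11.7 and 15.4 FPKM and rose by 0.62 in PGC-1α relative to Ctrl. By the most abundant of its 6 transcripts this difference was 0.46, below 1.5-fold. Apoo, a subunit of the cristae-organizing MICOS complex, was at 17.7, 32.8, 26.5 and 35.4 FPKM and rose by 0.86 in PGC-1α relative to Ctrl. In both genes Ctrl was the lowest and PGC-1α+OGD the highest library.

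Parl, a rhomboid protease of the inner membrane, was at 8.02, 14.4, 15.7 and 19.5 FPKM and rose by 0.77 in PGC-1α and by 0.89 in Ctrl+OGD, both relative to Ctrl. Lactb, a filament-forming protein of the intermembrane space, was at 1.97, 5.86, 4 and 4.33 FPKM, a rise of 1.21 in PGC-1α relative to Ctrl (0.23 by its most abundant transcript). Clpb, a disaggregase, was at 6.98, 12.8, 6.21 and 12.8 FPKM. Among the 46 genes and these 34, it was the only one that passed in both comparisons of PGC-1α with control, by 0.79 and 0.94, although its most abundant transcript was at -0.08 in the first.

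Xpnpep3, an aminopeptidase that trims imported proteins, was at 4.56, 0.561, 3.78 and 4.9 FPKM and fell by 1.83 in PGC-1α relative to Ctrl. Hscb, a co-chaperone of iron-sulfur cluster assembly, was at 21.8, 13.7, 16.8 and 16.4 FPKM and fell by 0.63 there. Ddit3, the stress transcription factor CHOP, was at 393 FPKM in the Ctrl library, 91.8 FPKM in PGC-1α and, after OGD, 228 FPKM in control cells and 212 FPKM in PGC-1α cells. It was highest in Ctrl, the library in which the import and proteostasis genes were most often lowest, and it fell by 2.09 in PGC-1α and by 0.78 in Ctrl+OGD, both relative to Ctrl. Atf4, a factor upstream of Ddit3, was at 314, 221, 367 and 348 FPKM and passed in PGC-1α+OGD relative to PGC-1α alone, by 0.65. The other listed regulators of the response, Atf5 (180, 163, 183 and 166 FPKM) and Cebpb (173, 172, 134 and 122 FPKM), passed in no comparison. Whether the level of Ddit3 has a part in the differences above was not tested.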

How the data were processed

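Poly(A) RNA of HT-22 cells was sequenced after stranded, paired-end library preparation. Per the submitters' processing notes the reads were aligned to GRCm38 with HISAT2 2.1.0; the quantifier, the annotation and the filter on transcripts are not given in the sources used here. The authors deposited 1 table of 25889 Ensembl transcripts with 4 columns and no unit, whose values were taken as FPKM. Each transcript reached at least 0.5 FPKM in 1 library. The reads per library are unknown, so that the precision of single values cannot be given. Shared reads of paralogs and pseudogenes may be divided among them in an unknown way.

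Transcripts were matched by identifier without version to GENCODE release M21 (25822 matched, 67 not) and summed per symbol. Those whose mean reached 1 FPKM were compared as log2(FPKM + 1), and 1.5-fold or more was counted as a call, the study's fold criterion without its p value. With 1 library per group no test was run. Values in every library are given for Ppargc1a, genes past 1.5-fold, the 2 most abundant genes of each role, genes whose sum and most abundant transcript disagree, and related genes past 1.5-fold with PGC-1α. Genes and lists were chosen with earlier results of these data known. Atf4, Atf5, Cebpb, Immt, Dnajc11, other members printed with 4 values and the ratios were added after the values were seen. Alternatives were other pseudocounts, filters, scalings, fold limits and transcript choices. The calculations were made in Python 3.11.15 with numpy 2.4.6, pandas 2.3.3 and matplotlib 3.10.9. Their code was checked on simulated data without noise, from which planted 2-fold changes had to be returned. This check does not cover the error of single libraries.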

Additional observations from a re-analysis of the deposited data

Results flagged for a closer look

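Each of the following results is a difference between 2 log2 differences, of which 1 passes 1.5-fold and the other has the opposite sign. With 1 library in each group none of these results was tested. Gaps without both traits are left out, whatever their size. Examples are Timm44 (-0.74), Phb (-0.62) and Tomm22 (-0.61) for the difference with PGC-1α, with OGD minus without. For Tomm5 the difference with PGC-1α was 1.03 without OGD and -0.08 with OGD, which is -1.10 between them. For Pmpcb it was 0.59 and -0.01, which is -0.60 between them. For Htra2 it was -1.17 and 0.35, which is 1.52 between them. The difference with OGD in Htra2 was -0.42 in control cells and 1.10 in PGC-1α cells, again 1.52 between them, and the upper value rests on a transcript listed at 0 in the other 3 libraries. For Tomm22 the difference with OGD was 0.60 in control cells and -0.01 in PGC-1α cells, which is -0.61 between them.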

How the results depend on the processing

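No paired analysis was possible because each group has 1 library and the only replicate number is 1. The medians stayed within 0.1 of the values above in each alternative that gives one, over 24 genes with 1 transcript, 45 genes at a mean of at least 5 FPKM and 46 genes otherwise; the 2-fold limit gives no median of its own. In PGC-1α+OGD relative to Ctrl+OGD the median of 0.02 became -0.07 over genes with 1 transcript and -0.01 by the most abundant transcript. By the most abundant transcript, Tomm40l in PGC-1α relative to Ctrl was -0.73 and Htra2 in PGC-1α+OGD relative to PGC-1α was -0.94, both with the sign turned. By it the genes lower numbered 2, 3, 1 and 1 of 46 in the 4 comparisons, in the order of the report. The shares over all genes were 9.3%, 7.23%, 10.4% and 8.73%. By the most abundant transcript the genes higher numbered 5, 0, 11 and 1 of 46. The shares of higher over all genes were then 7.8%, 5.84%, 9.59% and 7.46%. At 2-fold, 1 of 46 genes was higher in PGC-1α and 1 in Ctrl+OGD, each relative to Ctrl, against 1.47% and 1.49% of all genes. At this limit 0 were lower in PGC-1α+OGD relative to Ctrl+OGD, against 1.08%. With equal column totals 3 of 46 genes were higher in Ctrl+OGD, against 4.69% of all genes. Genes with 1 deposited transcript, an alternative chosen after seeing the data, gave 1 higher and 0 lower of 24 in PGC-1α (4.69% and 4.79% of all such genes), 4 higher in Ctrl+OGD (5.79%) and 0 higher in PGC-1α+OGD relative to PGC-1α (2.55%). A mean of at least 5 FPKM leaves out Htra2, which gives 0 lower in PGC-1α and 0 higher in PGC-1α+OGD relative to PGC-1α. The shares over all genes at that level were 4.42% and 3.2%. The construction of each alternative (fewer genes, another transcript, a higher limit) sets these counts. Of 140 values of single genes, 128 kept their direction and their side of 1.5-fold and 10 kept the direction only. Part of these values could not change. The filters on low values and the choice of genes with 1 deposited transcript leave a gene's own difference as it is. For a gene with 1 deposited transcript, the most abundant transcript is the sum. The count of 128 therefore does not measure how stable the differences are. Over all genes, the most abundant transcript gave 814 higher and 971 lower in PGC-1α (521 and 597 summed), 609 and 755 in PGC-1α+OGD relative to Ctrl+OGD (327 and 405), 1001 and 1086 in Ctrl+OGD (657 and 818) and 779 and 911 in PGC-1α+OGD relative to PGC-1α (405 and 553). At 2-fold these were 156 and 162, 108 and 114, 158 and 206, and 126 and 177. Depth is unknown, so that low genes such as Htra2 have an unknown counting error.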
